A study of Arabidopsis thaliana with 24 samples.

Results

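The genes described here are 6 expansins of Arabidopsis thaliana: the alpha expansins EXPA4 (AT2G39700), EXPA8 (AT2G40610), EXPA15 (AT2G03090) and EXPA16 (AT3G55500), and the beta expansins EXPB1 (AT2G20750) and EXPB3 (AT4G28250). They were chosen by name, as genes with a probe set annotated to that gene alone. Each had 1 such probe set, so the 6 stand among 17504 probe sets with an annotated gene and 38408 on the array. All 6 were tested on all 24 arrays, with no filter on dim signals. The choice was made with earlier results of these data known. Counts of members set beside a background are therefore descriptions and not tests. In mean level over the 24 arrays the members lay above 56.8% (EXPA15) to 97.9% (EXPA8) of the 17504 probe sets. The background thus includes many dimmer probe sets and is not matched to the members by level. Expansins are secreted proteins that loosen plant cell walls at acid pH without cutting the wall polymers, which lets turgor stretch the cell. Alpha expansins act on the walls typical of dicots, whereas the wall-loosening action of beta expansins is known mainly from grass pollen proteins of maize. In shade-avoiding rosette plants, phytochromes sense a low ratio of red to far-red light, and petioles then elongate and lift the leaf, growth in which cell walls must extend.

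The study asked how far-red light given to a leaf tip or to a whole rosette changes transcripts at both ends of that leaf. The treated plants had received far-red enrichment of the tip alone (local FR), far-red enrichment of the whole rosette (whole FR) or touch, and the controls stayed in white light. The red to far-red ratio was 0.05 where far-red was added and 2.3 elsewhere, with 140 µmol per m2 per s of photosynthetically active light in every group. Plants were 28 days old, had grown in a pot each at 20°C with 9 h of light in each day, and were sampled after 5 h of treatment. Both pieces came from the fifth-youngest leaf: a piece of 2.5 mm from the tip of its lamina (leaf tip) and a piece of 1.5 mm from the foot of its petiole (petiole base). Each of the 8 combinations of treatment and piece had 3 arrays, labelled as independent biological replicates, and this number limits the precision. The plant accession, the number of plants behind an array and how touch was applied are not given in the sources used here. No mutant or transgenic plants are named in the labels, and the far-red groups shared the controls' background white light.

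All levels below are deposited log2 values, on which 1 unit is a doubling, and treatments and pieces are compared only within a gene. Ranks and medians over tested probe sets are given only to show which signals are dim. Arrays of a group correlated at 0.980 to 0.992 over the 17504 probe sets with an annotated gene. Differences come from limma's moderated test, fitted on all 24 arrays with 1 mean per group. A gene is called changed where the p-value adjusted by the Benjamini-Hochberg method over 17504 probe sets was under 0.05, and errors of differences are standard errors (SE). The tissue labels were checked with lamina markers. SWEET11, a sucrose exporter of leaf phloem, averaged 9.07 ± 0.12 in control leaf tips and 1.27 ± 0.30 in control petiole bases (SD, n = 3), and in all treatments its base mean stayed at or under 1.58. Of 7 lamina markers, 5 were higher and 1, the stomatal-lineage gene SPCH, was lower in control tips than in control bases. Both measured genes of dividing cells, AUR1 and AUR2, were also lower in tips. BOP1 and BOP2, which mark the leaf base, were not analysed here.

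In white light the 6 expansins separated the ends of the leaf, with 3 of them higher at the tip and 3 higher at the base. All 6 were called, against a background of 28.7% of tested probe sets (13.5% higher and 15.2% lower at the tip), and in all 6 the arrays of the pieces did not overlap, against a background of 38.7%. EXPB1 had 6.87, 6.51 and 7.13 in control tips and 4.32, 5.22 and 3.93 in control bases, so that every tip array lay above every base array. The difference was 2.35 (SE 0.25, adjusted p = 1.565e-07). EXPA16 had 3.82, 4.29 and 5.49 in control tips and 2.22, 3.01 and 2.0 in control bases. Its control base mean, 2.41, lay under the median of tested probe sets in that group, 2.75. The third tip array stood well above the other two, and without overlap the difference was 2.12 (SE 0.29, adjusted p = 6.324e-06). EXPA8 had 8.84, 8.85 and 9.12 in control tips and 7.84, 7.35 and 6.94 in control bases, a difference of 1.56 (SE 0.23, adjusted p = 1.449e-05). These are the tip-high expansins, a pair of alpha members and a beta member.

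The base-high genes were likewise of both families. EXPB3 had 5.46, 5.66 and 5.92 in control tips and 8.27, 8.45 and 8.72 in control bases, with the tip 6.96-fold lower (adjusted p = 3.596e-10). Its arrays were tight within each piece, with an SD of 0.23 in both. EXPA15 had 3.10, 2.90 and 3.38 in control tips and 4.72, 4.27 and 5.28 in control bases, with the tip 3.09-fold lower (adjusted p = 8.211e-06). EXPA4 had 4.49, 4.54 and 4.81 in control tips and 5.42, 5.36 and 6.13 in control bases, with the tip 2.04-fold lower (adjusted p = 0.00185). In this bulk tissue, fewer cells that express a gene and less of its RNA per cell cannot be told apart. Tip and base were cut from one leaf, but the labels do not say which tip array shares a leaf with which base array. A pairing by leaf could therefore not be fitted. Deviations of same-numbered control tip and base arrays from their group means correlated at 0.013, 0.0676 and 0.1044. With the replicate number as a block, whose meaning is not given, all 6 calls held.

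**Figure D1:**
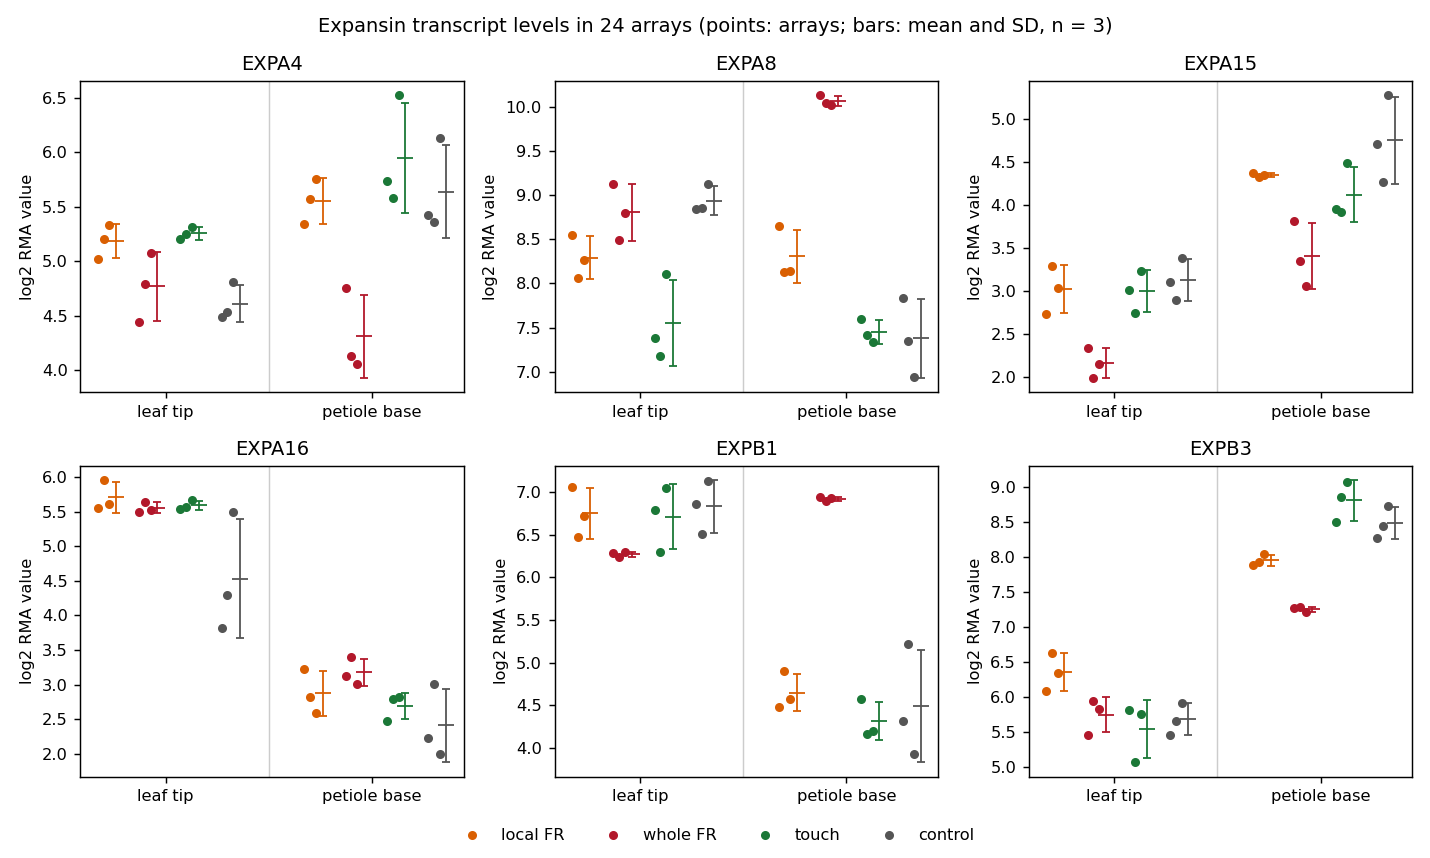
Deposited log2 value (vertical axis, own scale for each gene) of the 6 expansin genes in the 24 arrays (points), with leaf tips left of petiole bases and the 4 treatments by colour. Horizontal marks and bars are the mean and SD of each group (n = 3). In the petiole base, EXPA8 and EXPB1 are highest in whole FR, with means of 10.07 and 6.92, while EXPB3 is highest under touch, at 8.81.

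Far-red on the whole rosette changed 5 of the 6 expansins in the petiole base, raising 2 and lowering 3, against a background of 13.3% of tested probe sets called (7.18% higher and 6.1% lower). EXPA8 and EXPB1, an alpha and a beta member that were lower in control bases than in control tips, rose 6.45-fold and 5.40-fold. EXPA4, EXPA15 and EXPB3, all base-high in white light, fell 2.51-fold, 2.55-fold and 2.34-fold. The arrays of 5 genes did not overlap between whole FR and control, against a background of 26.0%. The median difference over the 6 was -0.23, beside -0.00 over all tested probe sets.

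EXPA8 had 10.13, 10.05 and 10.02 in whole FR bases, close together and far above the control mean of 7.38 ± 0.45 (SD, n = 3), a difference of 2.69 (SE 0.23, adjusted p = 2.162e-08). EXPB1 had 6.94, 6.89 and 6.94 in whole FR bases, within 0.05 of each other, against 4.49 ± 0.66 in control bases (SD, n = 3). Its difference was 2.43 (SE 0.25, adjusted p = 2.735e-07). The control bases were more spread than the whole FR bases for both genes.

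Among the genes that fell, EXPA15 had 3.81, 3.35 and 3.06 in whole FR bases, against 4.76 ± 0.51 in control bases (SD, n = 3), a difference of -1.35 (SE 0.23, adjusted p = 0.000215). EXPA4 had 4.75, 4.13 and 4.06 in whole FR bases, against 5.64 ± 0.43 in control bases (SD, n = 3), a difference of -1.33 (SE 0.24, adjusted p = 0.000349). EXPB3 had 7.27, 7.28 and 7.21 in whole FR bases, against 8.48 ± 0.23 in control bases (SD, n = 3), a difference of -1.23 (SE 0.20, adjusted p = 0.000115). All whole FR arrays of these 3 genes lay under all control arrays.

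EXPA16, the remaining alpha expansin, had 3.13, 3.40 and 3.01 in whole FR bases, with the lowest of them level with the highest control array, 3.01. Its arrays thus touched the control range. Its difference of 0.77 (SE 0.29, adjusted p = 0.0977) did not pass the test, and its 95% interval ran from 0.16 to 1.38. Without control base replicate 2, the array at 3.01, the difference was 1.07 and passed (adjusted p = 0.0201). The other 5 calls held without any single array.

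Markers of other cells also differed in the comparison of whole FR with control bases. The mean level over the 7 lamina markers was 3.99 to 4.03 in whole FR bases and 4.29 to 4.64 in control bases. That mean includes SPCH, which was higher in control bases than in control tips. The median difference over the 7 was -0.21, and 2 of the 7, SPCH and LHCB4.2, were called, both lower. SPCH had 3.44, 2.92 and 3.81 in whole FR bases and 6.04, 3.46 and 6.84 in control bases. In control bases SPCH was low in replicate 2, the array that was also lowest for EXPA4 and EXPA15 and highest for EXPA16 and EXPB1. Both genes of dividing cells were lowest there too, AUR2 with 2.13 against 3.68 and 4.66 in the other control bases. Of the other lamina markers, LHCB4.1, LHCB4.2, LHCB4.3 and FMA were highest there, MUTE was lowest and SWEET11 lay between. Without control base replicate 2 all 6 expansins were called, against 5 with it. AUR1 had 5.67, 5.36 and 5.98 in whole FR bases and 5.86, 5.50 and 6.84 in control bases, and neither gene of dividing cells was called. SWEET11 stayed near the low end of the scale in both groups, and the part of these markers in the expansin differences was not tested. SPCH had 2.99, 2.89 and 3.01 in touched bases. In whole FR bases against touched bases the same 5 expansins were called in the same directions, and 3 of the 7 lamina markers were called, all lower (LHCB4.1, LHCB4.2 and LHCB4.3), with a median difference over the 7 of -0.41. At the tip none of the 7 lamina markers was called in any treatment against control, nor in local FR or touched bases.

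**Figure D2:**
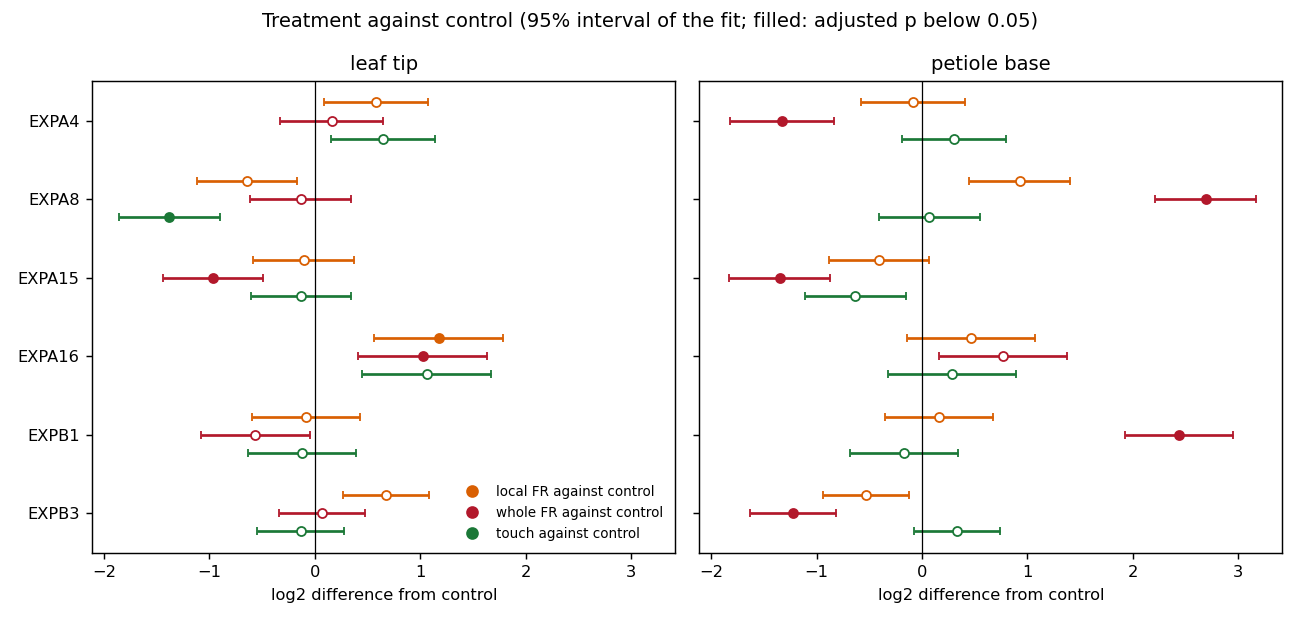
Log2 difference of each treatment from the white-light control (horizontal axis) for the 6 expansin genes, in the leaf tip and in the petiole base. Bars are 95% intervals from limma, and filled points have an adjusted p under 0.05. Whole FR in the base spans the widest range, with EXPA8 at 2.69 and EXPA15 at -1.35.

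Far-red on the tip alone called none of the 6 expansins in the petiole base, which lay outside the far-red spot. The background was 1.06% of tested probe sets. EXPA8 had 8.65, 8.12 and 8.14 in local FR bases, all above the 3 control base arrays. The difference was 0.93 (SE 0.23, adjusted p = 0.0529), and with the replicate number as a block the adjusted p was 0.0262. Without control base replicate 1, the highest control array at 7.84, it was 1.16 (adjusted p = 0.0193). EXPB3 had 7.89, 7.93 and 8.04 in local FR bases, all under the lowest control array at 8.27, with a difference of -0.53 (SE 0.20, adjusted p = 0.303). EXPA8 and EXPB3 were the genes whose arrays did not overlap, 2 of 6 against a background of 13.1%. The background of called probe sets was 186 of 17504 and, without 1 array, between 78 (without local FR base replicate 2) and 220 (without control base replicate 2).

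The other members showed smaller differences with intervals that included 0. EXPB1 had 4.48, 4.90 and 4.58 in local FR bases, inside the control range, with a difference of 0.16 and a 95% interval from -0.35 to 0.67. EXPA15 had 4.37, 4.32 and 4.35 in local FR bases, with a difference of -0.41 (interval -0.88 to 0.07). EXPA4 had 5.34, 5.57 and 5.75 in local FR bases, with a difference of -0.09 (interval -0.58 to 0.41), and EXPA16 had 3.22, 2.82 and 2.58, with a difference of 0.47 (interval -0.14 to 1.08). Most of their local FR arrays fell within the spread of the control arrays.

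Set directly against local FR, whole FR in the petiole base gave the same split of genes as against the control. EXPB1 was higher by 2.27 (SE 0.25, adjusted p = 2.135e-06) and EXPA8 by 1.76 (SE 0.23, adjusted p = 2.399e-05). EXPA4 was lower, with -1.24 (SE 0.24, adjusted p = 0.00171), as were EXPA15 with -0.94 (SE 0.23, adjusted p = 0.0138) and EXPB3 with -0.70 (SE 0.20, adjusted p = 0.0385). These are 5 of 6 calls against a background of 5.47%, and the arrays of the same 5 genes did not overlap (background 21.3%). The whole FR arrays are shared with the comparison against the control. The calls of the genes with the smallest differences did not hold in every fit without 1 array. EXPB3 was lost without any one of the 6 arrays, at adjusted p of 0.0836 to 0.125. Its difference stayed between -0.727 and -0.654 in these fits, with SE of up to 0.226. EXPA15 was lost without local FR base replicate 1 (difference -0.931, adjusted p = 0.0526). It was also lost without whole FR base replicates 2 (-0.915, adjusted p = 0.053) or 3 (-0.767, adjusted p = 0.106).

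Touch gave no call among the 6 in the petiole base against the control, with a background of 0.211% called. The lowest p-value was that of EXPA15, with 3.96, 3.92 and 4.50 in touched bases and a difference of -0.63 from control (SE 0.23, adjusted p = 0.263). Without control base replicate 2 its difference was -0.88 (adjusted p = 0.047). EXPB3 had 8.49, 8.86 and 9.08 in touched bases, the highest mean of that gene in the study, but overlapped the controls (difference 0.33, adjusted p = 0.604). EXPA8 had 7.60, 7.41 and 7.33 in touched bases, EXPB1 had 4.58, 4.17 and 4.20, EXPA4 had 5.73, 5.58 and 6.52, and EXPA16 had 2.48, 2.79 and 2.82. The EXPA16 mean in touched bases, 2.695, also lay under the median of tested probe sets in that group, 2.72. No gene's touch arrays separated from its control arrays in the base, against a background of 14.8%. The background of called probe sets was 37 of 17504 and, without 1 array, between 0 (without touch base replicate 2) and 483 (without control base replicate 2).

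With touch in place of the control as the reference, whole FR raised EXPA8 by 2.62 (SE 0.23, adjusted p = 2.499e-08) and EXPB1 by 2.61 (SE 0.25, adjusted p = 8.154e-08) in the petiole base. It lowered EXPA4, with -1.63 (SE 0.24, adjusted p = 2.567e-05), EXPB3, with -1.56 (SE 0.20, adjusted p = 4.716e-06), and EXPA15, with -0.72 (SE 0.23, adjusted p = 0.0367). The count was 5 of 6 against a background of 15.3%, and the arrays of all 6 did not overlap (background 32.0%), EXPA16 included with a difference of 0.48 (adjusted p = 0.353). EXPA15 was lost without whole FR base replicates 2 (adjusted p = 0.0998) or 3 (0.198) and without touch base replicate 3 (0.208). Local FR against touch called 2 of 6, against a background of 3.81%. EXPA8 was higher by 0.86 (SE 0.23, adjusted p = 0.0374) and EXPB3 lower, with -0.86 (SE 0.20, adjusted p = 0.0142), and the arrays of both did not overlap (background 20.8%). The EXPA8 call was lost without any one of the 6 arrays (adjusted p of 0.0629 to 0.145). The EXPB3 call was lost without local FR base replicate 2 (0.0611) and without touch base replicates 2 (0.0576) or 3 (0.0922).

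At the leaf tip whole FR called 2 of 6, against 5 of 6 in the base and a background of 7.91% of tested probe sets: EXPA16 was higher and EXPA15 lower than in controls. EXPA15 had 2.34, 1.99 and 2.16 in whole FR tips, all under the lowest control array of 2.90, with a difference of -0.97 (SE 0.23, adjusted p = 0.00897). Without control tip replicate 3 that difference was -0.84 (adjusted p = 0.0546). The EXPA15 mean in whole FR tips, 2.161, lay under the median of tested probe sets in that group, 2.59. EXPA16 had 5.50, 5.64 and 5.52 in whole FR tips, against 4.53 ± 0.86 in control tips (SD, n = 3), with a difference of 1.02 (SE 0.29, adjusted p = 0.0333). EXPA8 had 9.13, 8.49 and 8.80 in whole FR tips, across its control range (interval of the difference -0.61 to 0.34). Its whole FR and control tip arrays thus overlapped. EXPB1 had 6.28, 6.24 and 6.29, all under its control arrays, a difference of -0.56 (SE 0.25, adjusted p = 0.199). EXPA4, with 4.44, 4.79 and 5.07, and EXPB3, with 5.46, 5.94 and 5.84, overlapped their controls. The arrays of 3 of the 6 genes, EXPA15, EXPA16 and EXPB1, did not overlap the controls, against a background of 21.4%. For EXPA16 the gap was very narrow, from 5.493 in the highest control to 5.497. Neither gene that rose in the base, EXPA8 or EXPB1, had a positive difference at the tip.

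Local FR, which was given to the tip itself, called EXPA16 alone there, 1 of 6 against a background of 2.05%. EXPA16 had 5.55, 5.96 and 5.61 in local FR tips, a difference of 1.17 (SE 0.29, adjusted p = 0.0373). EXPB3 had 6.09, 6.63 and 6.35 in local FR tips, all above the control arrays, with a difference of 0.67 (SE 0.20, adjusted p = 0.0908). EXPA4 had 5.02, 5.20 and 5.34, also all above its controls, with a difference of 0.58 (SE 0.24, adjusted p = 0.286). EXPA8 had 8.55, 8.06 and 8.27, all under its controls, with a difference of -0.65 (SE 0.23, adjusted p = 0.194). These are 4 of 6 genes with arrays that did not overlap, EXPA16 included, against a background of 15.7%. EXPA15 had 2.73, 3.29 and 3.04 and EXPB1 had 7.06, 6.47 and 6.72, inside or across their control ranges.

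Touch called EXPA8 alone at the tip, 1 of 6 against a background of 0.246%. EXPA8 had 7.38, 7.18 and 8.10 in touched tips, against 8.94 ± 0.16 in control tips (SD, n = 3), a fall of 2.61-fold (difference -1.38, SE 0.23, adjusted p = 0.00789). Every touched tip lay under every control tip, and the touched array at 8.10 was the nearest to them. Without touch tip replicate 2, the lowest array, the difference was -1.20 (adjusted p = 0.0645). EXPA16 had 5.54, 5.58 and 5.67 in touched tips, with a difference of 1.06 (SE 0.29, adjusted p = 0.164). EXPA4, with 5.20, 5.25 and 5.32, lay above its controls with a difference of 0.64 (SE 0.24, adjusted p = 0.362). These 3 genes were the ones whose arrays did not overlap, against a background of 12.5%. EXPA15 had 3.01, 2.75 and 3.24, EXPB1 had 6.80, 6.29 and 7.05, and EXPB3 had 5.81, 5.06 and 5.76, all overlapping their controls.

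The EXPA16 differences at the tip were measured against controls spread over 3.82, 4.29 and 5.49. All 9 treated tip arrays, touched ones included, lay between 5.50 and 5.96, all above the highest control. The lowest of them, whole FR replicate 1 at 5.497, was barely above that control at 5.493. Without control tip replicate 3 the EXPA16 difference was 1.65 in local FR, 1.50 in whole FR and 1.54 under touch, and that of touch then passed (adjusted p = 0.00837). Without control tip replicate 1 it was 0.82 in local FR (adjusted p = 0.208) and 0.66 in whole FR (adjusted p = 0.21). Without control tip replicate 2 the adjusted p was 0.13 in local FR and 0.12 in whole FR. Leaving out any 1 of the far-red tip arrays also lost the call, at adjusted p of 0.0623 to 0.164 in local FR and 0.0714 to 0.0971 in whole FR. The 3 comparisons share these control arrays.

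Between treatments, the leaf tip gave few calls. Whole FR against local FR called none of the 6 (background 2.23%), although the arrays of 3 did not overlap (background 16.7%). EXPA15 missed the test narrowly, with a difference of -0.86 (SE 0.23, adjusted p = 0.0506), and without local FR tip replicate 1 it passed (adjusted p = 0.0416). Local FR against touch called EXPB3 (background 1.38%), also the 1 gene without overlap there (background 15.0%), which was higher in local FR by 0.81 (SE 0.20, adjusted p = 0.0387). This was lost without touch tip replicate 2 (adjusted p = 0.256) and without local FR tip replicates 2 (0.206) or 3 (0.112). EXPA8 differed there by 0.74 (adjusted p = 0.15), and by 1.01 without touch tip replicate 3 (adjusted p = 0.0251). Whole FR against touch called 2 of 6 (background 7.33%), and 3 did not overlap (background 21.8%). EXPA8 was higher in whole FR by 1.25 (SE 0.23, adjusted p = 0.00105), and EXPA15 was lower, with -0.84 (SE 0.23, adjusted p = 0.0264). EXPA15 was lost there without touch tip replicates 1 (0.0726) or 3 (0.117) and without whole FR tip replicates 2 (0.103) or 3 (0.067).

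The difference between the ends of the leaf varied with the treatment, most of all for EXPA8 and EXPB1. Differences in this paragraph are tip minus base, with SE of 0.20 to 0.29. EXPB1 differed by 2.10 in local FR, -0.65 in whole FR, 2.40 under touch and 2.35 in the control, so that whole FR alone had the base above the tip. EXPA8 differed by -0.01 in local FR, -1.26 in whole FR, 0.11 under touch and 1.56 in the control, so that the end with the higher level was the base in whole FR and the tip in the control. For EXPB3 the tip lay below the base everywhere, with differences of -1.60 in local FR, -1.51 in whole FR, -3.27 under touch and -2.80 in the control. EXPA4 was higher at the base in local FR (-0.37), under touch (-0.69) and in the control (-1.03), with the opposite sign in whole FR (0.46). EXPA15 stayed lower at the tip, between -1.63 and -1.13 in the 4 treatments, and EXPA16 stayed higher there, between 2.12 and 2.90.

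**Figure D3:**
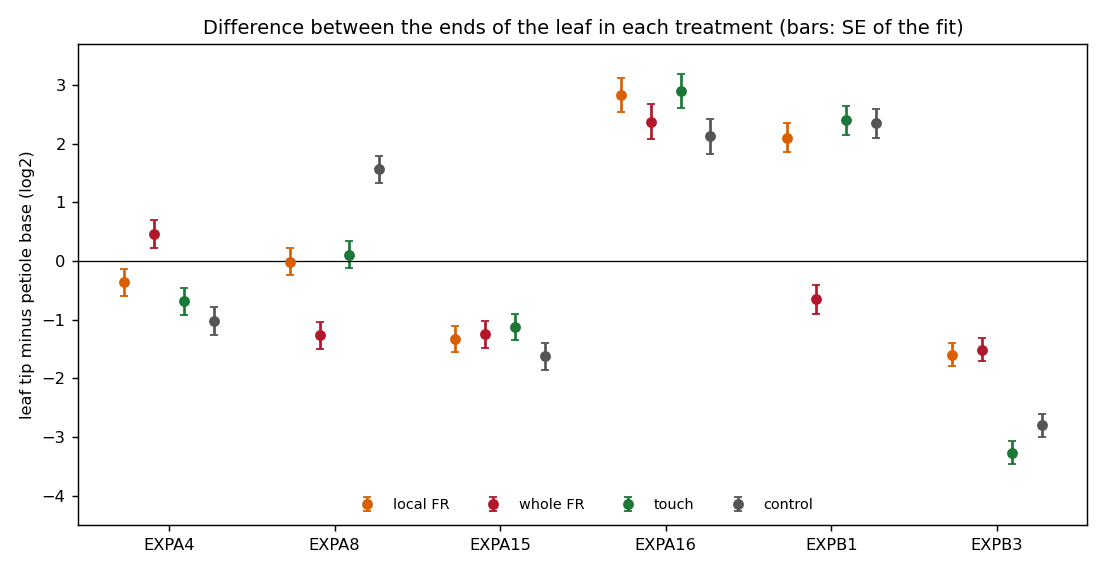
Log2 level in the leaf tip minus that in the petiole base (vertical axis, points with bars of 1 SE) for each of the 6 expansins under the 4 treatments (colours). EXPB1 lies above 2 in 3 treatments and at -0.65 in whole FR, while EXPA16 stays between 2.12 and 2.90.

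The test of the treatment effect at the tip minus that at the base called 4 of the 6 for whole FR, against a background of 8.36%. The effect on EXPB1 differed by -3.00 (SE 0.35, adjusted p = 4.680e-06) and that on EXPA8 by -2.82 (SE 0.33, adjusted p = 4.087e-06), both more positive in the base. EXPA4 differed by 1.48 (SE 0.33, adjusted p = 0.00595) and EXPB3 by 1.29 (SE 0.28, adjusted p = 0.00415), both more negative in the base. EXPA15 (0.38, interval -0.29 to 1.06) and EXPA16 (0.25, interval -0.61 to 1.11) were not called. For local FR 2 of 6 were called, against a background of 0.908%: EXPA8, with -1.57 (SE 0.33, adjusted p = 0.0154), and EXPB3, with 1.20 (SE 0.28, adjusted p = 0.0372). In local FR both genes thus had opposite signs of difference at the tip and at the base, and none of these effects passed on its own in the fit without a block.

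The calls for local FR were fragile. EXPA8 was lost without local FR base replicate 1 (adjusted p = 0.0521), local FR tip replicate 2 (0.0591) or control base replicate 3 (0.0537). EXPB3 was lost without any one of 9 of the 12 arrays, at adjusted p of 0.059 to 0.12, the exceptions being control tip replicate 3, local FR tip replicate 1 and control base replicate 1. For touch none of the 6 was called, with 0.0% of all tested probe sets called (0 by this fit and 3 with trended robust variances). EXPA8 had a difference of -1.45 (SE 0.33, unadjusted p = 0.000204, adjusted p = 0.188).

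Over all 8 groups each gene had its own order. EXPA8 was highest in whole FR bases, separated from the next group, control tips, by 1.13, after which each neighbour in the order overlapped the next, down to touched and control bases. EXPB1 formed an upper level of whole FR bases and all 4 tip groups, whose neighbours overlapped, and a lower level of the 3 remaining base groups, 1.62 below. EXPB3 ran from touched and control bases, which overlapped, through local FR bases, whole FR bases and local FR tips, each apart from the next, to the other tip groups, which overlapped. EXPA16 had 3 overlapping treated tip groups at the top. Control tips came next at 4.53, very narrowly apart from whole FR tips (5.493 against 5.497). Below them were the 4 base groups, each overlapping the next. EXPA15 had 3 overlapping base groups on top, whole FR bases and 3 tip groups in the middle, and whole FR tips apart at the bottom (2.16). EXPA4 had the narrowest range of group means, 1.63, with touched, control and local FR bases on top and whole FR bases at the bottom. The ranges of the other members were 2.60 (EXPA15), 2.61 (EXPB1), 2.69 (EXPA8), 3.27 (EXPB3) and 3.30 (EXPA16), beside pooled SDs within groups of 0.25 to 0.40. The calls over the 16 comparisons, many of which share arrays, numbered 9 for EXPA8, 8 for EXPB3, 6 for EXPA15, 5 each for EXPA4 and EXPB1, and 3 for EXPA16.

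Genes with the most similar pattern were sought among 1776 single-gene probe sets with a symbol of their own, by Pearson's r over the 24 arrays after subtracting each tissue's mean. This is a description of arrays that share treatments and carries no test. EXPA8 was closest to MGL, a methionine gamma-lyase (r = 0.85), CDI (0.84) and XTH33, a xyloglucan endotransglucosylase (0.83). EXPB1 was closest to PRA1.B6 (0.89), CSLC04, a synthase of the xyloglucan backbone (0.87), and the expansin-like gene EXLA1 (0.85). EXPB3 was closest to TMT2, a sugar transporter of the vacuole membrane (0.86), NCRK, a receptor-like kinase (0.84), and BGLU44, a beta-glucosidase (0.80). EXPA4 shared a pair of these, BGLU44 (0.82) and TMT2 (0.78), with YLS5 (0.79) between them. EXPA15 was closest to OTC, an ornithine carbamoyltransferase, and the plastid chaperone gene HSP93-III (both 0.84), followed by NRPA2, a subunit of RNA polymerase I (0.82). EXPA16 had the weakest neighbours, FIB (0.75), TBL24 (0.72) and DRT100 (0.70).

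Of the rest of the expansin superfamily, 16 genes had 17 single-gene probe sets, and 10 of these stayed under the median of tested probe sets in all 8 groups. In whole FR bases 5 of the 17 rose against control and none fell (background 7.18% higher and 6.1% lower), beside 2 higher and 3 lower among the 6 members. The list's median difference was 0.08, beside -0.00 over all tested probe sets. The expansin-like genes EXLA1 and EXLA2, whose wall-loosening activity has not been established, changed most, by 3.57 (SE 0.19, adjusted p = 1.399e-11) and 2.86 (SE 0.21, adjusted p = 2.287e-09). In local FR bases (background 1.06%) these 2 were the called ones of 17, EXLA1 with 1.69 (adjusted p = 3.817e-05) and EXLA2 with 1.57 (adjusted p = 0.000213). At the tip EXPA9, an alpha expansin, was the 1 called of 17 in local FR (1.18, SE 0.25, adjusted p = 0.0103, background 2.05%) and in whole FR (0.97, SE 0.25, adjusted p = 0.0152, background 7.91%). EXPA7 and EXPA18, which act in root hairs, averaged between 0.99 and 1.61 over both genes on every array.

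**Figure D4:**
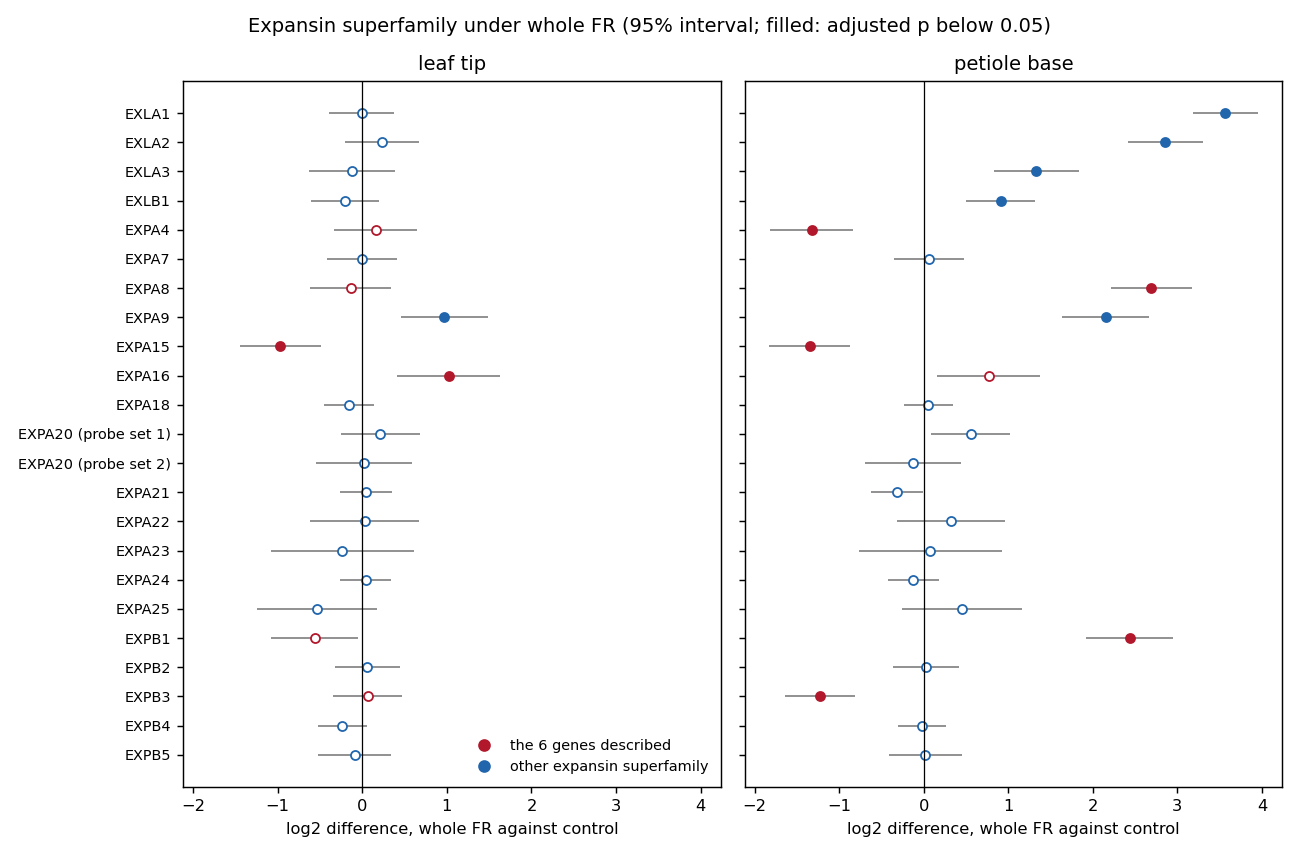
Log2 difference of whole FR from control (horizontal axis) in the leaf tip and the petiole base, for the 6 genes (red) and the 17 probe sets of the rest of the superfamily (blue). Bars are 95% intervals from limma and filled points have an adjusted p under 0.05. In the base the 3 called falls are EXPA4, EXPA15 and EXPB3, and EXLA1 has the highest value at 3.57.

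Genes of xyloglucan enzymes, which act on the same walls, were set beside the same background of 13.3% in whole FR bases. Of 9 xyloglucan endotransglucosylases, which cut and rejoin xyloglucan chains, 3 rose, none fell and 6 were not called, with XTH33 at 3.60 (SE 0.21, adjusted p = 7.417e-11) and XTH16 at 2.75 (SE 0.27, adjusted p = 1.882e-07). Their median was 0.21. Of 4 genes of xyloglucan backbone synthases, 3 rose, none fell and 1 was not called, with CSLC04 at 1.41 (SE 0.16, adjusted p = 1.244e-06) and CSLC6 at 0.98 (SE 0.13, adjusted p = 1.016e-05), and their median was 0.82. At the tip in whole FR (background 7.91%), 2 of the 9 endotransglucosylases rose, XTH33 by 1.51 (SE 0.21, adjusted p = 4.830e-05) and XTH32 by 1.16 (SE 0.20, adjusted p = 0.000597), and none of the 4 synthases was called. In local FR bases (background 1.06%) 1 of each list was called, XTH33 at 0.98 (SE 0.21, adjusted p = 0.0196) and CSLC04 at 0.81 (SE 0.16, adjusted p = 0.0104).

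Of 21 shade and auxin markers, some were called at both ends of the leaf under both far-red treatments, and most were not. In whole FR bases (background 13.3%) 5 of 21 rose, 3 fell and 13 were not called, led by IAA29, an auxin-response repressor gene induced by shade, at 5.50 (SE 0.31, adjusted p = 4.032e-11), and FHL, which helps phytochrome A enter the nucleus, at 3.32 (SE 0.27, adjusted p = 8.793e-09). In local FR bases (background 1.06%) 2 of 21 rose, with IAA29 at 1.67 (SE 0.31, adjusted p = 0.00652) and the homeobox gene HAT2 at 0.99 (SE 0.19, adjusted p = 0.00737), and none fell. At the tip 5 of 21 rose and 1 fell in local FR (background 2.05%), and 6 rose and 1 fell in whole FR (background 7.91%). The auxin-conjugating enzyme gene GH3.3 had the largest difference at the tip in both, 4.70 in local FR and 5.17 in whole FR (SE 0.53), followed by the repressor gene IAA34 with 3.62 and 3.38 (SE 0.18).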

How the data were processed

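Arrays were read from the deposited table of log2 values, which the authors computed by RMA in Expression Console (core-gene analysis), per the labels. RMA corrects background, sets arrays to a common distribution and summarises probes, so overall shifts between arrays are largely removed and low signals are compressed. The genome build behind the array annotation is not given in the sources used here. All 24 arrays were used, and no column belonged to another sample. GEO's platform annotation listed 17504 of 38408 probe sets, of which 16746 named 1 gene and 758 several; 20904 were not listed and had no name here. RefSeq matched 16601 of the single-gene probe sets, and 1777 had a symbol other than the locus name. Signal from related expansin transcripts on a probe set was not tested.

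limma 3.58.1 in R 4.3.3 was fitted to the 17504 probe sets with 1 mean per group over all 24 arrays (16 residual and 5.37 prior degrees of freedom). It gave 16 comparisons, with Benjamini-Hochberg adjustment within each and a threshold of 0.05. Tested on simulated data for the base comparison of whole FR with control, over 17504 probe sets, it recovered 38% of changes of 1.5-fold, 84% of 2-fold and 98% of 3-fold, with 6 false among 165 calls. The simulation changed 200 probe sets, whereas the real comparison called 2323. These rates therefore do not give the recovery in the real comparison. The alternatives were a replicate block, cyclic loess on the RMA values, a filter on the dimmest 30%, a fit of the file's unlisted probe sets too, trended robust variances, a fit of the compared groups only, and the removal of 1 array at a time.

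Same-numbered arrays were checked for pairing by correlating their deviations from the group means. All 3 pairs exceeded 0.1 only in the base comparison of local FR with control (0.1002, 0.1828 and 0.4367), so the blocked value stands beside that result. The named genes were the 6 expansins, up to 2 called members of each comparison list by size of change, and the 3 nearest patterns of each expansin. The members and all gene lists were chosen with earlier results of these data known.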

Additional observations from a re-analysis of the deposited data

Results flagged for a closer look

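The effects listed here differed between the leaf tip and the petiole base by the test of that difference (effect at the tip minus effect at the base, log2, limma on all 24 arrays). For whole FR, EXPA8 differed by -2.82 and EXPB1 by -3.0, with the base effect the more positive for both. For whole FR, EXPA4 differed by 1.48 and EXPB3 by 1.29, with the base effect the more negative for both. For local FR, EXPA8 differed by -1.57 and EXPB3 by 1.2. The whole FR and local FR effects share their control arrays, so these are not separate evidence for EXPA8 or EXPB3. Groups of 3 arrays were not tested for single arrays that stand apart.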

How the results depend on the processing

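The results were recomputed for 96 pairs of gene and comparison. Of 36 called pairs, 23 were called under every alternative run, 13 lost the call under at least 1, and 0 changed sign. The replicate block changed 2 of the 96 pairs, both to called (EXPA8, local FR against control in the base, and EXPA15, whole against local FR at the tip), so the counts of members were 1 in place of 0 in each. The same counts of 1 came from leaving out the dimmest probe sets and from trended robust variances. Testing all probe sets of the file gave 0 members for local FR against control at the tip, 1 for whole FR against control at the tip, 0 for local FR against touch at the tip, 1 for local FR against touch in the base and 1 for the tip minus base effect of local FR. With only the groups compared these were 0, 1, 0, 2 and 0, and touch against control at the tip gave 0. Trended robust variances gave 2 for local FR against control at the tip, and loess gave 1 for local FR against touch in the base. Testing all probe sets also lost EXPB3 for whole against local FR in the base (adjusted p = 0.0593). It lost EXPA15 for whole FR against touch in the base (0.0565), a call also lost with only the groups compared (0.06). The cause of these changes was not tested.

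Leaving out 1 array gave ranges of members called. At the tip these were 0 to 1 for local FR and 0 to 2 for touch against control, and 0 to 1 for whole against local FR. They were 0 to 2 for local FR against touch and 1 to 2 for whole FR against touch, also at the tip. For whole FR against control at the tip, every such fit called 1 gene, in place of the 2 of the main fit. In the base they were 0 to 1 for local FR and for touch against control, 3 to 4 for whole against local FR and 0 to 1 for local FR against touch. For the local FR effect they were 0 to 2. Whole FR against touch in the base lost EXPA15 in some of these fits. Whole FR against control in the base gained EXPA16 without control base replicate 2.

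Counts over all probe sets, not of members, moved by over 1.5 times in 25 of 96 cases. Leaving out 1 array moved these counts as far in 27 further cases. Touch against control in the base then lay between 0 and 483 in place of 37, and local FR against control in the base went down to 78 in place of 186. These 25 cases include fits of all probe sets of the file, whose counts are out of a larger total. For whole FR against control in the base that fit called 4266 of 38408, in place of 2323 of 17504. A higher count there is therefore not by itself a higher share of probe sets called. Fitting only the groups compared lowered the counts, for example to 0 in place of 43 for touch against control at the tip. With 3 arrays a group, small changes are within reach only in part, and dim genes are compressed by RMA.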
